A study of Mus musculus with 24 samples.

Results

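The genes described here are the cytosolic ribosomal protein genes of mouse macrophages, taken as every gene of the authors' normalized table whose name begins with Rpl or Rps and a number, without the Rps6k kinases. The rule found 60 of 18132 genes. They comprise 28 genes of the large subunit, 24 genes of the small subunit, 7 genes named as paralogs of a subunit gene and 1 gene, Rps19bp1, that encodes a protein binding Rps19 and is not itself a ribosomal protein. One of the paralogs, Rps4l, carries the name RPS4Y2 on the array and is annotated in RefSeq as a transcribed pseudogene. The name rule leaves out other genes that encode ribosomal proteins, such as Rplp0, Rplp1, Rplp2, Rpsa and Fau.

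RNA came from bone marrow-derived macrophages, cells grown in culture from the marrow of female Balb/c mice aged 8 to 10 weeks. The cultures were kept for 24 h with interleukin-4 (IL-4, a stimulus of alternative activation), with interferon-gamma (IFN-gamma, a stimulus of classical activation), with isoproterenol (a synthetic agonist of beta-adrenergic receptors) or in medium alone. Each group held 6 bead arrays, 2 from each of 3 experiments, and the 2 arrays were averaged, so that n = 3 experiments per group. Nothing in the labels says whether the 2 arrays, or the experiments, came from separate animals. The p-values therefore measure only how the differences between groups varied across these experiments, once the level of each experiment was fitted. The 3 comparisons with medium share the same medium arrays. The arrays lay on 4 slides. In experiment 1 all groups were on slide 1. In experiment 2 isoproterenol was on slide 3 and the other groups on slide 2. In experiment 3 medium was on slide 3 and the activators on slide 4. Where a group and its medium were on different slides, differences between slides may enter the comparison. All 8 macrophage markers examined were above background on all 24 arrays. Of the markers of B cells, T cells, neutrophils, erythroid cells, fibroblasts and mast cells none was above it on all arrays, and of 5 dendritic cell markers 1 was.

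A cytosolic ribosome is built from a small subunit, which binds the mRNA and decodes it, and a large subunit, which joins the amino acids. Its proteins are needed in fixed proportion, and their genes are among the most highly expressed of most cells. In mammals their mRNAs begin with a tract of pyrimidines, the TOP motif, through which mTORC1 signalling controls their translation. In human monocytic cells, IFN-gamma is also known to release the large-subunit protein Rpl13a from the ribosome.

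RefSeq promoter sequences (GRCm38.p6) were matched to 49 of the 60 genes. Windows of 80 bases, running from 60 bases before the annotated start to 20 after it, are shown for some genes of the results below. They are the 7 with a promoter among 8 genes that were lower with IFN-gamma under every scaling of the arrays, and Rpl3l, which was higher. The 8 genes are 19% of the 42 members that could be rescaled, close to the 17.3% of all genes that could be. Capitals mark a pyrimidine tract on the gene's strand, defined as a C followed by at least 7 C or T. All are written 5′ to 3′ on the strand of the gene, and Rpl22 and Rpl3l have more than 1 annotated start.
Rpl22, chr4:152324376-152324455, plus strand: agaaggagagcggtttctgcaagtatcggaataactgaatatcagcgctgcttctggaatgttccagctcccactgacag
Rpl22, chr4:152325666-152325745, plus strand: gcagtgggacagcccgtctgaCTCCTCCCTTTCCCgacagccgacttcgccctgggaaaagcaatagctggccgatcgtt
Rps15, chr10:80292371-80292450, plus strand: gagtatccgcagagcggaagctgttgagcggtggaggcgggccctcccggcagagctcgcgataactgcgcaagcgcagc
Rps25, chr9:44407654-44407733, plus strand: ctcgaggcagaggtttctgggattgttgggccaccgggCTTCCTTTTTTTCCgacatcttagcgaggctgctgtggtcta
Rps16, chr7:28350629-28350708, plus strand: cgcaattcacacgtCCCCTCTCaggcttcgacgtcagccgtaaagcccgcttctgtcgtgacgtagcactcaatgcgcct
Rps26, chr10:128626487-128626566, minus strand: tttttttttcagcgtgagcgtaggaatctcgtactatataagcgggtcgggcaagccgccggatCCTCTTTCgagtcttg
Rps13, chr7:116334171-116334250, minus strand: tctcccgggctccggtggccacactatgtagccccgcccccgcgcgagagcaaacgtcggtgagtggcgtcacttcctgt
Rpl12, chr2:32961652-32961731, plus strand: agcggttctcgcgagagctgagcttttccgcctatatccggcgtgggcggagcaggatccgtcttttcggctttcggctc
Rpl3l, chr17:24727766-24727845, plus strand: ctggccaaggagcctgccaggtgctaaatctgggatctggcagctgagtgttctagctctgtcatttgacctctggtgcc
Rpl3l, chr17:24732625-24732704, plus strand: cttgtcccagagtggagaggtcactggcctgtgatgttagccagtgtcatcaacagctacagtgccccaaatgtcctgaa

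In this 80-base window a tract was found in 29 of 49 promoters of subunit genes (59.2%), against 25.1% of all 32851 promoters. The tract may lie anywhere in the window, so it need not be a TOP motif, which stands at the start of the mRNA. The share depends on the window: with 50 bases on either side of the start it was 81.6% of the subunit-gene promoters and 28.8% of all, and over the whole 300 bases 87.8% and 62.7%. The ETS-type motif CCGGAAG, searched on both strands, was in 22.4% of the subunit-gene promoters and 4.76% of all in the 80-base window, and in 38.8% and 8.86% over the 300 bases. Its reverse complement can overlap the tract. Neither share says which start a macrophage uses.

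Of the 60 genes, 56 were bright enough to test, 26 of the large subunit, 23 of the small subunit, 6 paralogs and Rps19bp1. A gene was tested if its normalized intensity was above 149.3, the limit of background, on at least 6 of the 24 arrays, which 10059 genes passed. Rpl14, Rpl17, Rps23 and Rpl39l did not pass, and Rpl17 and Rps23 were at background on all arrays. The brightness of a spot depends on its probe, so a dim spot is not a low transcript level. Among the 431 genes with a mean intensity over 5000 there were 38 members of the set (8.82%), and the median of the tested members was 10917, against 288.7 over all genes tested. These genes therefore lie mostly at the upper end of the arrays' range.

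With IFN-gamma, most ribosomal protein mRNAs measured lower than in medium alone, by a small amount. Of the 56 tested genes, 39 fell and 2 rose (limma, p-values adjusted by Benjamini-Hochberg over 10059 genes, threshold 0.05), where 25.7% of all genes tested fell and 17.5% rose. The median log2 difference of the 56 genes was -0.24, against -0.03 over all genes tested. It was -0.20, -0.23 and -0.28 in the 3 experiments. In 27 of the genes all 6 IFN-gamma arrays lay below all 6 medium arrays, which held for 15.4% of all genes tested. This fall depends on how the arrays are scaled, as described below, and the share of genes that were lower under every scaling was close to that over all genes. The summed intensity of the macrophage markers was also lower, at 59590 to 64869 with IFN-gamma against 70390 to 74040 in medium. Of these 8 markers 4 fell and 2 rose with IFN-gamma. With IL-4 the sum was 64913 to 70090, also below medium. The part of this sum in the result was not tested. In these bulk samples fewer cells of a type and less RNA per cell cannot be told apart.

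**Figure D1:**
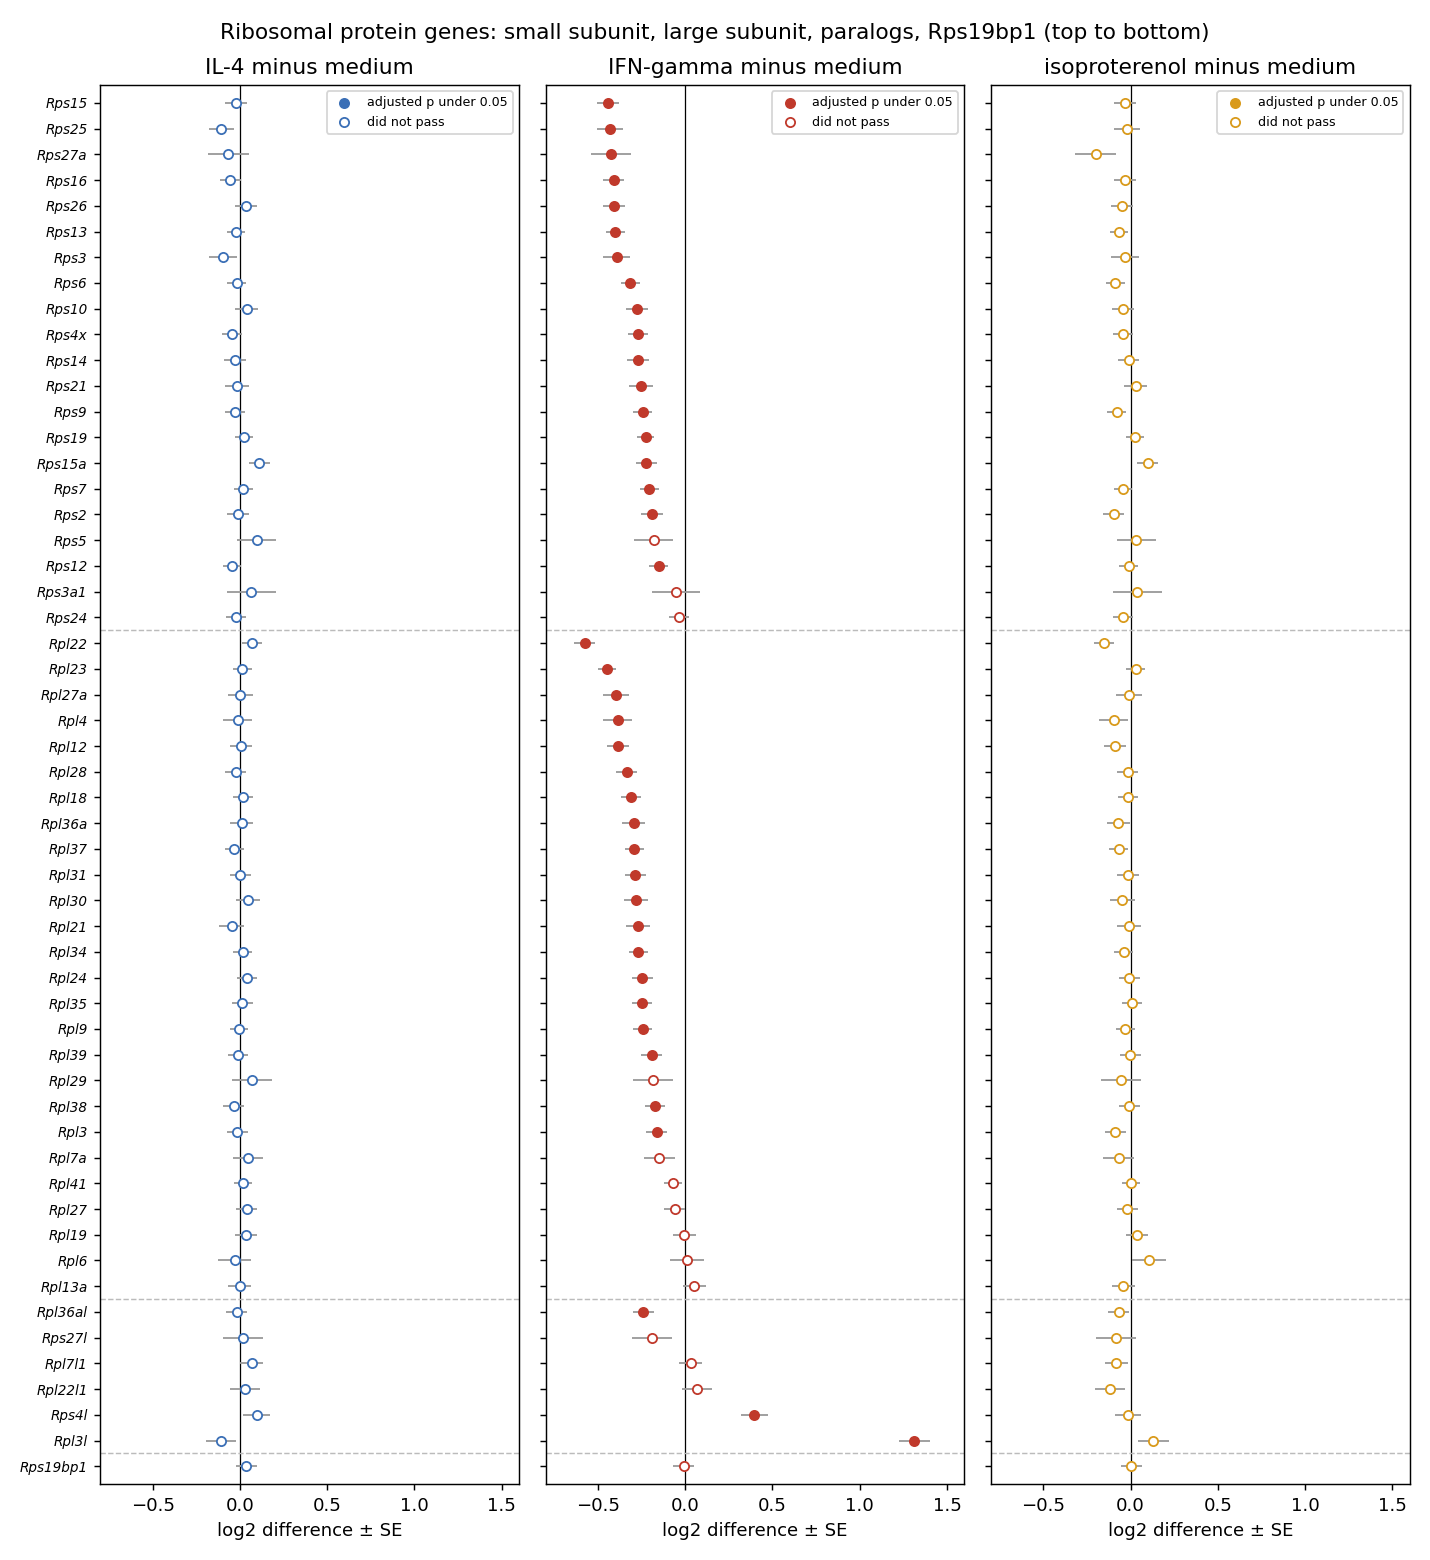
Log2 difference from medium (x axis, ± SE from the fit, n = 3 experiments per group) of tested genes (y axis) for IL-4, IFN-gamma and isoproterenol, without those not reported by name. Filled points passed an adjusted p under 0.05. With IFN-gamma most subunit genes lie left of zero as filled points and Rpl3l and Rps4l right of it, whereas the IL-4 and isoproterenol panels hold no filled point.

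With the authors' normalization genes of both subunits fell, where 25.7% of all genes tested fell. In the small subunit 19 of 23 genes fell with IFN-gamma, with a median log2 difference of -0.27, and in the large subunit 19 of 26 fell, with a median of -0.26. Neither subunit had a gene that rose. The falls ranged in size up to 1.49-fold, and no member other than Rpl3l moved by more than that.

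The largest fall was that of Rpl22, a large-subunit protein that is not needed for general translation but is needed in mice for alpha-beta T cell development. Its normalized intensity had a lowest, median and highest value of 594, 739 and 844 with IFN-gamma, against 851, 1037 and 1151 in medium. The groups did not overlap. On the log2 scale Rpl22 fell by 0.58 (SE 0.0586, adjusted p = 1.3e-05 by limma), and the falls in the 3 experiments were close to each other, at -0.56, -0.64 and -0.53.

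Rpl23, a large-subunit protein that can bind and inhibit the p53 regulator Mdm2, had 6471, 6608 and 7182 with IFN-gamma as lowest, median and highest intensity, against 8435, 9146 and 9785 in medium. It fell by 0.45 (SE 0.0537, adjusted p = 4.6e-05 by limma). Its value could not be traced to a single probe, so it could not be rescaled from the non-normalized data.

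Among the small-subunit genes, Rps15 had 6970, 7268 and 8058 with IFN-gamma, against 9489, 9898 and 10443 in medium. Its groups did not overlap, and it fell by 0.44 (SE 0.0641, adjusted p = 1.9e-04 by limma). Rps25, which takes part in initiation at internal ribosome entry sites, had 4690, 5648 and 6396 with IFN-gamma, against 6987, 7401 and 8837 in medium. It fell by 0.43 (SE 0.073, adjusted p = 6e-04 by limma), also without overlap. Rps16 had 11534, 12830 and 14242 with IFN-gamma, against 15771, 17064 and 17903 in medium, and fell by 0.41 (SE 0.0616, adjusted p = 2.6e-04 by limma).

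Rps27a, which is made as a fusion with ubiquitin, behaved less evenly. Its intensities were 981, 1254 and 1654 with IFN-gamma, against 1408, 1731 and 2008 in medium, so that the groups overlapped. It fell by 0.43 (SE 0.116, adjusted p = 0.011 by limma), but the experiments gave -0.09, -0.31 and -0.88. Rps6, the substrate of the S6 kinases downstream of mTORC1, had 8374, 9138 and 9427 with IFN-gamma, against 10277, 11254 and 11968 in medium. The groups did not overlap and Rps6 fell by 0.31 (SE 0.0542, adjusted p = 6.8e-04 by limma). With arrays scaled to their 75th percentile its difference was -0.14 and did not pass (adjusted p = 0.11 by limma).

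**Figure D2:**
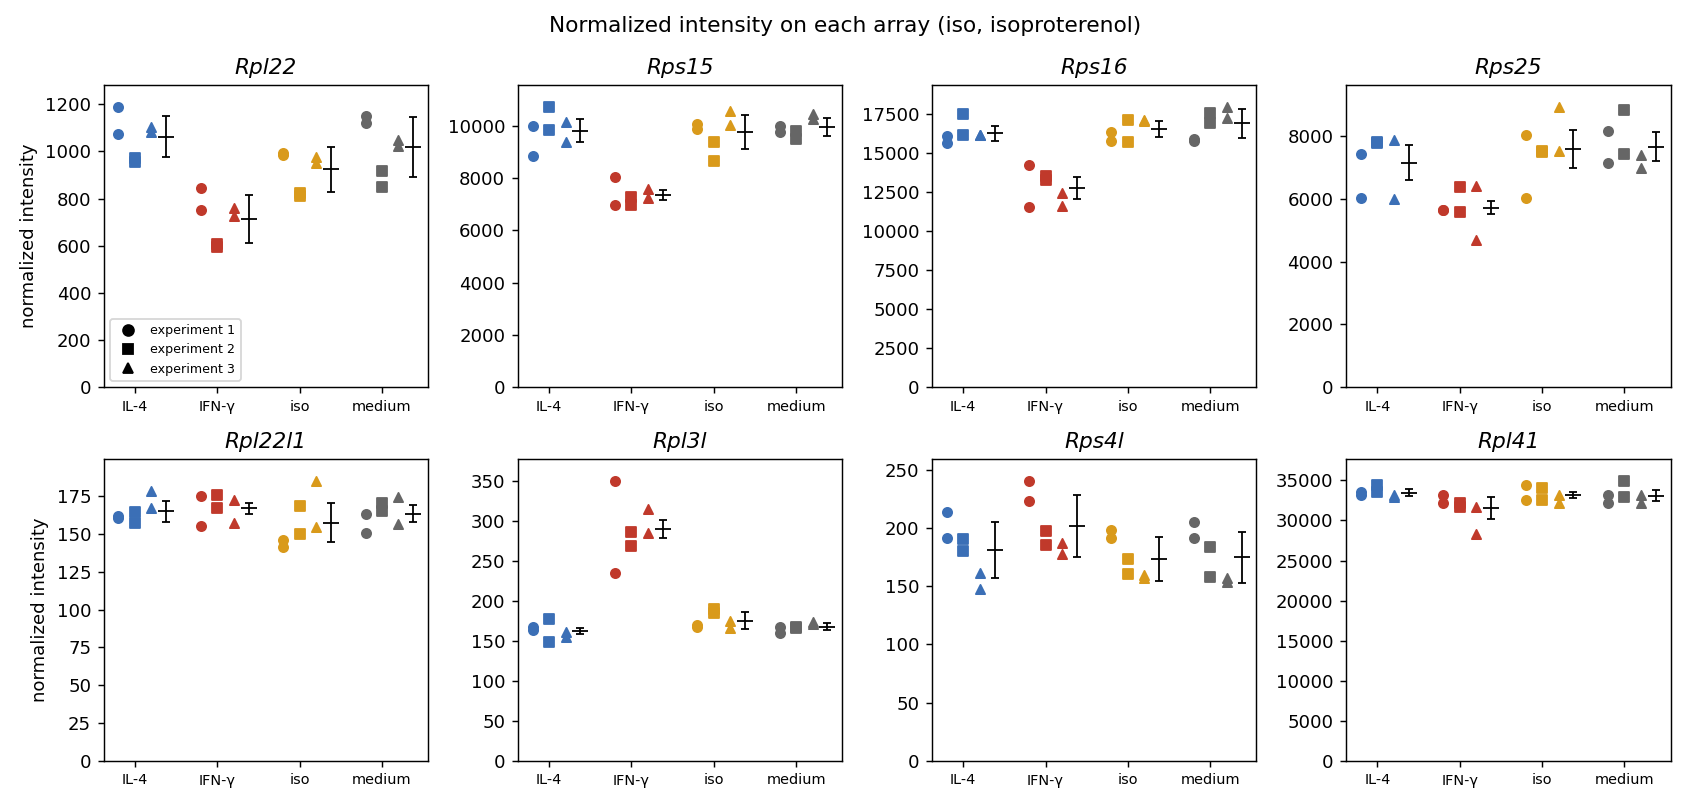
Normalized intensity (y axis, linear and from 0) on each array for 8 of the genes, by group; symbols mark the 3 experiments and the bar the mean ± SD of the 3 experiment values. Rpl22, Rps15, Rps16 and Rps25 lie lower with IFN-gamma than with medium without overlap, Rpl3l lies higher, and Rpl22l1 and Rpl41 overlap.

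Genes with the brightest spots differed among themselves. Rpl41, the smallest ribosomal protein, had 28362, 31951 and 33214 with IFN-gamma, against 32164, 33049 and 34914 in medium, and its difference of -0.07 did not pass (95% interval -0.19 to 0.05, adjusted p = 0.33 by limma). Rps12 fell by 0.15 (adjusted p = 0.042 by limma), a call lost under 13 of 22 alternatives, among them all 3 scalings. Rpl9 fell by 0.24 (adjusted p = 0.0028 by limma), a call lost under 4 of 22. Of the 10 brightest subunit genes 7 fell, with a median of -0.22, and of the other 26 subunit genes over 5000, 24 fell, with a median of -0.29. Among the 13 subunit genes at or below 5000, 7 fell, with a median of -0.22. Of all genes tested 25.7% fell. These counts rest on the authors' normalization, and many of the calls were lost when arrays were rescaled, as described below.

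Of the 4 genes with the dimmest spots, Rpl21 and Rps15a passed with falls of 0.27 and 0.22. Rps15a had 143, 149 and 157 with IFN-gamma, against 150, 162 and 174 in medium. It was above the background limit on only 3 of 6 IFN-gamma arrays, so the size of its difference is uncertain. Its call was lost under 7 of 21 alternatives, among them centring on bright genes (-0.15, adjusted p = 0.067 by limma). The other dim genes, Rpl6 and Rpl22l1, did not pass. Rpl13a, the protein released from the ribosome in human monocytic cells, had 1443, 1715 and 2088 with IFN-gamma, against 1526, 1734 and 1823 in medium. Its difference of 0.05 did not pass (95% interval -0.09 to 0.20, adjusted p = 0.56 by limma). Rps19bp1 did not pass either, at -0.01 (-0.14 to 0.12).

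Of 6 tested paralogs 2 rose, 1 fell and 3 did not pass, where 17.5% of all genes tested rose and 25.7% fell. Several of the paralogs had spots near background. Rpl3l, a paralog of Rpl3 that is known from heart and skeletal muscle, had 235, 286 and 350 with IFN-gamma, against 160, 167 and 174 in medium. The groups did not overlap, and 10.7% of all genes tested had all 6 IFN-gamma arrays above all medium arrays. After background adjustment Rpl3l rose 2.49-fold (log2 difference 1.31, SE 0.0877, adjusted p = 4.3e-07 by limma), with 1.37, 1.26 and 1.32 in the 3 experiments. With IL-4 it had 149, 163 and 177, above the background limit on 5 of 6 arrays, and with isoproterenol 166, 173 and 190. Its parent Rpl3 had 14705, 17179 and 18609 with IFN-gamma, against 18609, 18802 and 20087 in medium, and fell by 0.16 (adjusted p = 0.048 by limma), a call lost under 13 of 22 alternatives.

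Rps4l had 178, 192 and 240 with IFN-gamma, against 154, 171 and 205 in medium. The groups overlapped across experiments, since its level differed between them, but within the experiments it was higher by 0.38, 0.33 and 0.48, and the pooled log2 difference was 0.40 (SE 0.0764, adjusted p = 0.0014 by limma). The call was lost under 3 of 21 alternatives, among them the fit without the experiment term. Its parent Rps4x fell by 0.27 (adjusted p = 0.0026 by limma). Because Rps4l is close in sequence to Rps4x and is a pseudogene, the transcript its probe reads was not tested.

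Rpl22l1, whose mRNA is repressed by the Rpl22 protein in mouse cells, had 155, 170 and 176 with IFN-gamma, against 151, 164 and 174 in medium. These values lie just above background and the difference of 0.07 did not pass (95% interval -0.12 to 0.26, adjusted p = 0.58 by limma). Rpl36al fell by 0.24 (adjusted p = 0.0067 by limma), and its parent Rpl36a by 0.30 (adjusted p = 0.0034). Neither passed with arrays scaled to their 75th percentile, with -0.08 for Rpl36al (adjusted p = 0.37 by limma) and -0.09 for Rpl36a (adjusted p = 0.35). Rps27l, a target of p53, had -0.19 (-0.44 to 0.06), with 0.06, 0.00 and -0.63 in the 3 experiments, and did not pass. Rpl7l1 had 0.03 (-0.11 to 0.18) and did not pass.

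The size of the fall depended on the scaling. The authors' values are quantile-normalized, which gives every array the same distribution, and on the non-normalized IFN-gamma arrays the bright end was brighter: the 99th percentile was 8684 to 12048, against 7566 to 9662 in medium. For 42 of the 56 genes the value could be traced to 1 probe and rescaled from the non-normalized table. With each array scaled to its 75th percentile the median difference of these 42 genes was -0.11, and 12 fell, where 28 of the 42 fell with the authors' normalization and 20.4% of all genes fell under that scaling. With each array scaled to its median it was also -0.11, and 9 of 42 fell against 20% of all genes. The non-normalized array medians were 134.59 to 172.2, around the background limit of 149.3 of the normalized values, so this scaling rests on spots near background. Without any scaling the median differences of the 42 genes were -0.04, -0.07 and -0.07 in the 3 experiments. With all values centred on bright genes that are not members, the median of all 56 genes was -0.17 and 31 fell, where 19.3% of all genes fell and 23.6% rose.

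**Figure D3:**
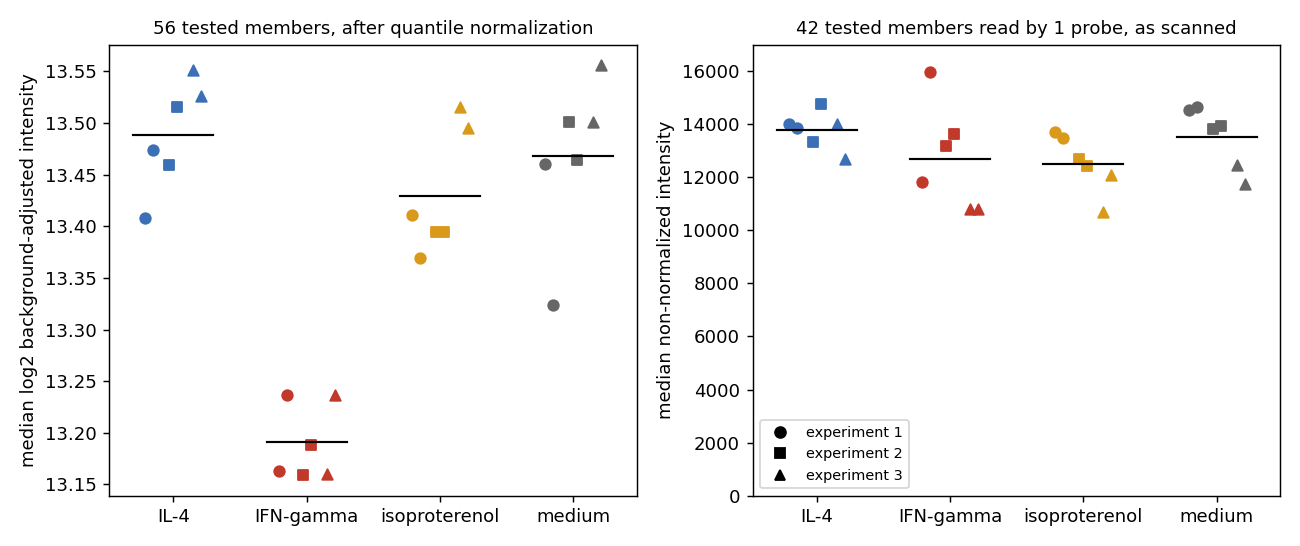
Left, median log2 intensity of the 56 tested genes on each array after the authors' quantile normalization and background adjustment (axis does not start at 0); right, median non-normalized intensity of the 42 genes traced to 1 probe (axis from 0). Lines are means of the 3 experiments. On the left the 6 IFN-gamma arrays lie at 13.16 to 13.24, below all medium arrays at 13.32 to 13.56, whereas on the right the IFN-gamma arrays, at 10789 to 15972, overlap the medium arrays at 11746 to 14631.

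Of the 42 genes traced to 1 probe, 8 (19%) were lower with the authors' normalization and under all 3 scalings, which is close to the 17.3% of all 6865 traced genes. They include Rpl12, Rpl22, Rps13, Rps15, Rps16, Rps25 and Rps26. Rpl22 changed least, with -0.53 (adjusted p = 4.8e-05 by limma) when arrays were scaled to the 75th percentile and -0.50 when centred on bright genes. Rps16 had -0.28 (adjusted p = 0.005) and Rps15 -0.25 (adjusted p = 0.0065) under the 75th percentile. Rpl3l (1.32) and Rps4l (0.38) remained higher under all 3 scalings.

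**Figure D4:**
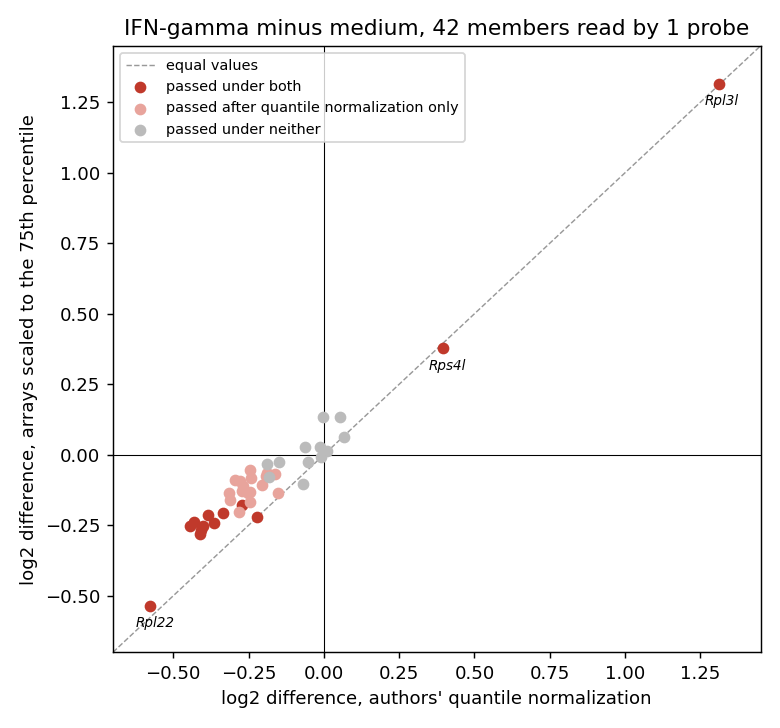
Log2 difference between IFN-gamma and medium of the 42 genes traced to 1 probe, with the authors' quantile normalization (x axis) and with arrays scaled to their 75th percentile (y axis). Most points lie above the dashed line of equal values, closer to zero, and Rpl22, Rps4l and Rpl3l lie near the line.

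One array stood apart. The second IFN-gamma array of experiment 1 correlated with its partner at 0.9765, whereas the other pairs reached at least 0.9959. Without it the same 41 genes were called, 2 higher and 39 lower, with a median of -0.28, where 25.8% of all genes fell and 17.8% rose.

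With IL-4 the ribosomal protein genes lay close to their medium values. None of the 56 passed (limma), and 0 had an unadjusted p under 0.05, where 7.67% of all genes tested passed and 19.2% had such a p. The median difference was 0.00, with single genes between -0.11 and 0.11. The 4 genes with the smallest adjusted p were Rps15a, Rps25, Rps4l and Rps3. Rps15a had 161, 167 and 176 with IL-4, against 150, 162 and 174 in medium (difference 0.11, 95% interval -0.02 to 0.25, adjusted p = 0.36 by limma). Rps25 had 6000, 7608 and 7854 with IL-4, against 6987, 7401 and 8837 in medium (-0.11, interval -0.27 to 0.06). Rps4l had 0.10 (-0.07 to 0.26) and Rps3 -0.10 (-0.27 to 0.08). Rpl22 had 954, 1077 and 1187 with IL-4 and overlapped its medium values.

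Isoproterenol likewise gave no call among the 56 genes (limma), where 1.28% of all genes tested passed. Rpl22 was the 1 gene with an unadjusted p under 0.05, which 11.3% of all genes had. The median difference was -0.03, and 44 of the 56 differences were negative, as were 5046 of 10059 over all genes tested. Centred on bright genes that are not members, the median was -0.011. Rpl22 had 811, 964 and 995 with isoproterenol, against 851, 1037 and 1151 in medium, a difference of -0.15 (95% interval -0.28 to -0.02, adjusted p = 0.34 by limma). It passed in a fit of the single arrays with slide in place of experiment as the block, with -0.26. On slide 3 that fit sets isoproterenol of experiment 2 against medium of experiment 3, so differences between experiments enter it. Rps27a had 1333, 1462 and 1619 with isoproterenol, against 1408, 1731 and 2008 in medium (-0.20, interval -0.46 to 0.06). Rps15a and Rps6 did not pass.

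Set against each other, the activators gave the same order. IL-4 against IFN-gamma had 36 genes higher and 2 lower, with a median difference of 0.25, where 25.4% of all genes were higher and 18.8% lower. Isoproterenol against IFN-gamma had 35 higher and 2 lower, with a median of 0.23, where 26.9% were higher and 19.4% lower. The 2 lower genes were Rpl3l and Rps4l in both comparisons. Isoproterenol against IL-4 had 1 gene lower, Rpl22 (-0.22, SE 0.0586, adjusted p = 0.033 by limma), where 4.65% of all genes were lower. That call was lost whenever 1 experiment was left out. The comparisons with IFN-gamma share its arrays, and the scaling bears on them as it does on the comparison with medium.

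Other genes of translation were looked at through lists, which were rescaled in part, since fewer of their genes could be traced to 1 probe. The counts stand against all genes tested, of which 25.7% fell and 17.5% rose with the authors' normalization, 20.4% fell and 18.3% rose with arrays scaled to their 75th percentile, and 19.3% fell and 23.6% rose when centred on bright genes. In mTORC1 and MYC regulators, which control ribosome production and the translation of TOP mRNAs, 14 of 27 tested genes fell with IFN-gamma and 3 rose, with a median of -0.21. Sesn1, an inhibitor of mTORC1, averaged 569 ± 97.4 with IFN-gamma and 2514 ± 348 in medium (SD, n = 3 each), and in log2 terms it fell by 2.36 (adjusted p = 1e-07 by limma). Deptor, an mTOR inhibitor, fell by 1.18, and Rragd, one of the Rag GTPases that bring mTORC1 to the lysosome, by 1.02. Max, the partner of MYC, rose by 0.92. The median remained negative under the 3 scalings, at -0.25 to -0.14, and 9 of 16 traced genes fell with the 75th percentile and 11 of 27 with centring. Rps6 belongs both to this list and to the ribosomal protein genes.

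Of 54 tested nucleolar assembly factors 17 fell and 5 rose, where 25.7% of all genes fell and 17.5% rose (median -0.11, and -0.11 to -0.03 under the scalings). With the 75th percentile 6 of 30 fell and 0 rose (limma). Gnl3, a nucleolar GTPase, fell by 0.77, Nop58, a core protein of box C/D particles, by 0.62, and Ncl, nucleolin, by 0.59, whereas Noc4l, an assembly factor of the small subunit, rose by 1.05. Among 11 elongation factors and relatives 6 fell and none rose (median -0.17, and -0.11 to -0.10 under the scalings), among them Eef2k, the kinase that inhibits Eef2, by 0.57 and Eef2 itself by 0.37. With the 75th percentile 2 of 6 fell, and with centring 4 of 11 fell and 1 rose. Of 31 initiation factors 11 fell and 4 rose, but with the 75th percentile 2 of 19 fell and 3 rose. Their median was -0.06 and turned to between 0.01 and 0.02 under the 3 scalings. The RNA polymerase I list had 3 of 12 lower and 1 higher, close to the share of all genes for lower ones (median -0.08, and -0.12 to -0.01 under the scalings).

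The 4 tested ribosomal proteins outside the name rule had a median of -0.06, which turned positive (0.02) when centred on bright genes and was -0.10 for the 2 traced ones under both array scalings, and 1 of the 4, Rplp0, fell by 0.30 (adjusted p = 0.0066 by limma). Ribosome rescue factors had 3 of 9 lower and 2 higher, with a median of -0.07 that turned positive under the 3 scalings (0.01 to 0.06). When centred on bright genes 0 of the 9 were lower and 2 higher (limma). Of 21 cell cycle genes 1 rose, Ccne1, and none fell. Their median was 0.15, but the experiments differed in direction, with 0.55, 0.39 and -0.65.

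With IL-4, Eif5a, an elongation factor, rose by 0.43 (adjusted p = 0.0042 by limma), and Rragc, another Rag GTPase, Castor1, an arginine sensor of the mTORC1 pathway, and Rragd fell by 0.41, 0.38 and 0.30. No other gene of these lists passed with IL-4, and none did with isoproterenol (limma). In the cell cycle list 16 of 21 genes had an unadjusted p under 0.05 with isoproterenol, which 11.3% of all genes had. Their list had a median of -0.57, with -0.15, -0.76 and -0.80 in the 3 experiments. Isoproterenol and medium shared a slide in experiment 1 alone, so slide and activator cannot be told apart in the other experiments. In experiment 3 the list also lay lower with IL-4 (-0.70) and IFN-gamma (-0.65), whose arrays were not on the slide of medium either.

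**Figure D5:**
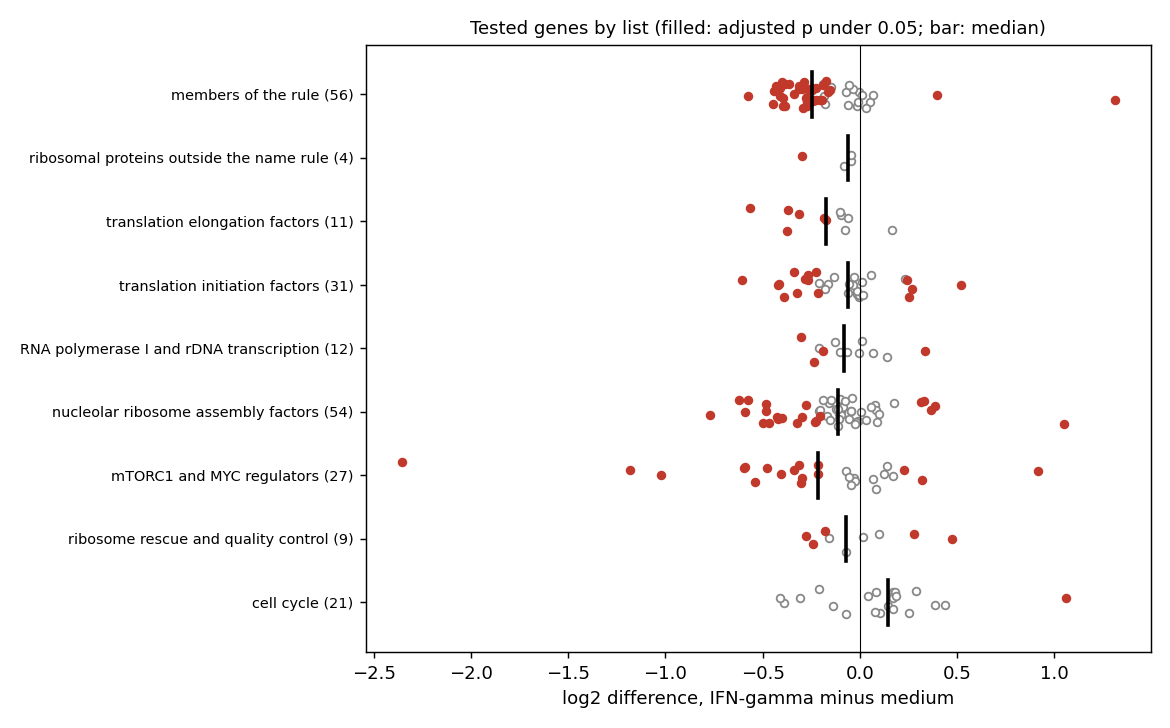
Log2 difference between IFN-gamma and medium (x axis) of each tested ribosomal protein gene and of each tested gene of 8 lists, with the number tested in brackets; filled points passed an adjusted p under 0.05 and bars are medians. The ribosomal protein genes have quartiles of -0.32 and -0.15 with Rpl3l at 1.31, and the mTORC1 and MYC regulators spread most widely, from -2.36 to 0.92.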

How the data were processed

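GenomeStudio was used to read the arrays, per the submitters' processing notes, which name no version. The deposited tables hold linear intensities, one non-normalized per probe (25697) and one normalized per gene (18132), the second quantile-normalized by the authors, as its values show. Gene intensities were matched to single probes by value. Background (mode 137.4) was adjusted with the normexp model and an offset of 50, and log2 values of 12 averages were fitted in limma 3.58.1 (R 4.3.3) with group and experiment. P-values are two-sided and adjusted over 10059 genes, and the fit was tested on simulated data. Fold changes are on this log2 scale. The number of arrays limits the precision.

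The experiment number in the labels pairs the groups; deviations of same-numbered samples correlated at 0.0226 to 0.775. Members and lists were chosen with earlier results of these data known. Values per array are given for the called members with the largest differences, or the 4 with the smallest adjusted p. They are also given for paralogs and parents, and for the brightest and dimmest members. Up to 4 called genes are named per list in each comparison. Rpl13a, Rps6, Rps19bp1, Castor1 and the genes lower under every scaling were singled out after their values were seen. Alternatives covered background, filter, scaling, averaging, experiment, slide and leaving out experiments. Some items are not reported here by name; they remain in the counts.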

Additional observations from a re-analysis of the deposited data

Results flagged for a closer look

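The 6 arrays of a group were examined in 228 sets of values. These were the values of each tested gene in each group and the median of the tested genes in each group. In 18 of them (7.89%) 1 array stood apart: its gap to the nearest other, divided by the range of the 6, which is the number in brackets below, was above Dixon's 95% critical value. Chance gives about 1 in 20. With IFN-gamma, Rpl34 (0.672), Rpl35 (0.697) and Rpl4 (0.697) had their highest value on the array that stands apart, the second of experiment 1. For Rpl35 it was 23639, against a median of 20223 on the other 5 arrays. Rpl23 (0.675) was high and Rpl41 (0.696) low on the second array of experiment 3, Rpl6 (0.641) was high on the first array of experiment 3, and Rpl27 (0.644) was low on the first array of experiment 1.

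With IL-4, Rpl31 (0.643) was low and Rpl6 (0.877) high on the first array of experiment 1, and Rpl36a (0.721) and Rps16 (0.714) were high on the first array of experiment 2. The Rpl6 value, 163, stood against a median of 144 near background. With isoproterenol, Rpl35 (0.629) was high on the first array of experiment 3, Rps19 (0.646) on the first of experiment 1, and Rpl37 (0.627) and Rps26 (0.627) on the second of experiment 1. In medium, Rpl18 (0.709) was high and Rpl7a (0.645) low on the second array of experiment 1, and Rps21 (0.824) was high on the second of experiment 2.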

How the results depend on the processing

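In the comparison of IFN-gamma with medium every refit gave a negative median of the members, from -0.28 without the array that stands apart to -0.10. Unscaled intensities, which were not refitted, gave -0.04 to -0.07 in single experiments. A value passing in neither fit was counted as unchanged whatever its sign. Of 466 values of the named genes for IFN-gamma under the alternatives, 404 were unchanged and 62 lost their call; none reversed. For IL-4 all 79 were unchanged, and for isoproterenol 75 of 76, Rpl22 passing with slide as the block. The cause of the changes below was not tested, except that within a slide or with only the groups compared fewer samples entered the fit. Scaling from the non-normalized table covers 42 of the 56 genes.

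For IFN-gamma against medium, scaling to the array median gave 11 calls (median -0.11) and to the 75th percentile 14 (median -0.11). With the array median 9 of 42 genes were lower and 2 higher, where 20% of all genes were lower and 17.4% higher. With the 75th percentile 12 were lower and 2 higher, against 20.4% and 18.3%. Centring on bright genes gave a median of -0.17, or -0.19 without the array that stands apart. Scaling to the 75th percentile without that array gave 12 calls (-0.10). Slides 1 and 2 each hold 1 experiment, so the fits within them take its 2 arrays per group as replicates and rest on the spread between those arrays. Within slide 1 there were 11 calls among 56 genes (-0.20), 10 lower and 1 higher, where 14.2% of all genes were lower and 10.8% higher. Within slide 2 there were 23, 22 lower and 1 higher, against 18.9% and 14.3%. With only the groups compared there were 26, 24 lower and 2 higher, against 18.6% and 13.4%. Without the replicate block (no experiment term) 34 passed, 1 higher and 33 lower, where 14.7% of all genes were higher and 21.7% lower. Leaving out 1 experiment gave 29 to 30, with 27 to 28 lower and 2 higher. Of all genes 18.9% to 21% were then lower and 13.1% to 16% higher.

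For IL-4 against medium the median was 0.032 with arrays scaled to their median, 0.034 with the 75th percentile and 0.022 within slide 2, with 0 calls (limma). For isoproterenol against medium slide as the block gave 1 call.

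For IL-4 against IFN-gamma, the median scaling gave 12 calls (0.16), 10 of 42 genes higher and 2 lower, where 19.9% of all genes were higher and 18% lower. The 75th percentile gave 15 (0.16), 13 of 42 higher and 2 lower, against 20.5% and 18.5%. Within slide 1 there were 8 (0.20), 7 of 56 higher and 1 lower, against 12.4% and 9.58%. Within slide 2 there were 25, 24 of 56 higher and 1 lower, against 19.4% and 15.5%. Centring on bright genes gave a median of 0.18, or 0.20 without the array that stands apart. The 75th percentile without that array gave 12 calls (0.14), 10 higher and 2 lower, where 20.4% of all genes were higher and 17.9% lower. For isoproterenol against IFN-gamma, the median scaling gave 9 calls (0.091), 7 of 42 genes higher and 2 lower, where 22.4% of all genes were higher and 18.7% lower. The 75th percentile gave 10 (0.082), 8 of 42 higher and 2 lower, against 22.5% and 19.5%. Within slide 1 there were 8, 7 of 56 higher and 1 lower, against 13.9% and 9.83%. Centring gave 0.17. Without that array the 75th percentile gave 10 calls (0.079), 8 higher and 2 lower, where 21.9% of all genes were higher and 17.9% lower. Centring without it gave 0.17. Leaving out 1 experiment gave 24 to 27 calls, 22 to 25 higher and 2 to 3 lower. Of all genes 20.7% to 22.7% were then higher and 14.7% to 17.4% lower.

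For isoproterenol against IL-4, the 1 call became 0 with a background offset of 16, under both scalings (median -0.069 with the 75th percentile), without the replicate block, within slide 1, with only the groups compared, at an adjusted p under 0.01 and whenever 1 experiment was left out. It became 2 with all 24 arrays, with or without a random block, and with slide as the block. In those fits 6.27% to 7.46% of all genes were lower.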
